A study of Mus musculus with 2 samples.

Results

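The cancer-associated fibroblasts (CAFs) of EMT6 tumors were examined in single-cell RNA sequencing data of 2 libraries, each prepared from the combined tumors of 3 animals. The tumors grew under the skin of female BALB/c mice aged 5 to 6 weeks after injection of 200000 EMT6 cells, a line from a mammary tumor of that species. Both groups received LLY-283, a PRMT5 inhibitor, at 50 mg/kg in cycles of 3 days on and 4 days off, and Olaparib, a PARP inhibitor, at 50 mg/kg. The Olaparib + LLY-283 group received only these, and the Combo group was in addition given 200 µg of an antibody to PD-1 at intervals of 3 days. No untreated library was analysed here, so every comparison between libraries concerns the antibody, the pool of mice and the library together, which cannot be told apart. The tumors were digested with enzymes, and red blood cells and dead cells were removed, before droplets were made.

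CAFs were chosen by their own readout. A cell was a member if it had 200 or more genes, under 20% mitochondrial UMIs (unique molecular identifiers, 1 per captured transcript), Col3a1 at 0.5% or more of its UMIs, at least 2 UMIs and 0.03% of Col5a2, Thy1 and Pdgfra together, and Tyrobp and Ptprc together under 0.05%. This gave 319 CAFs among 21985 filtered and 23657 deposited cells. The Olaparib + LLY-283 library held 253 of them among 16029 filtered cells, and the Combo library 66 among 5956. The median member of the first library had 4505 UMIs (709 to 38679) and that of Combo 21578.5 (512 to 86443), 4.79 times as many, and tumor cells differed by 5.00 times in the same direction. Summed over members, the libraries held 1615697 and 1677472 CAF UMIs. The 2 libraries shared 39 cell barcodes, and 0 of the shared barcodes belonged to a CAF in both.

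Fibroblasts build the extracellular matrix. They secrete fibrillar collagens, the proteoglycans that space the fibrils and the enzymes that crosslink or degrade them. In tumors, fibroblasts with contractile genes are often called myofibroblastic, fibroblasts that secrete cytokines and chemokines inflammatory, and fibroblasts with Pi16, Dpt or Ly6c1 resemble the resting cells of many tissues. The mesenchymal tumor cells of EMT6 carry some of the same RNA, so the CAFs were set beside tumor cells, which were gated on the keratins Krt8 and Krt18.

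Fibroblast markers that the rule had not used were high in these cells. Fgf7, a growth factor that fibroblasts secrete toward epithelium, was at 61.3 CPM (UMIs per 1000000 UMIs of the summed cells) in the CAFs of the Olaparib + LLY-283 library (95% Poisson interval 49.8 to 74.6) and at 128 (111 to 146) in those of the Combo library. In tumor cells Fgf7 was at 0.631 and 0.510 CPM, so the CAF level was 97.0 and 249 times as high. Lum, a proteoglycan of collagen fibrils, was at 560 and 810 CPM in CAFs against 3.29 and 2.42 in tumor cells. Fap, a surface protease of activated fibroblasts, was at 48.9 and 44.7 CPM in CAFs and at 0.500 and 0.255 in tumor cells. Of 12 fibroblast markers beside the rule, 10 were at least 2-fold above tumor cells in both libraries. The exceptions were Pdgfrb, a growth factor receptor, at 42.1 and 68.6 CPM in CAFs against 50.4 and 38.1 in tumor cells, and Ddr2, a collagen receptor, which was 2.11 and 1.85 times the tumor level. Intervals here and below cover counting error only, and a 3′ count is not scaled to gene length, so levels are compared for 1 gene at a time.

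The rule genes separated the CAFs by construction, and their values are given as a description. Col3a1, a fibrillar collagen on chromosome 1 (mm10, 45311538 to 45349706, plus strand), was at 17436 and 19941 CPM in CAFs against 444 and 385 in tumor cells, 39.2 and 51.9 times the level. Col3a1 made up between 0.503% and 7.27% of the UMIs of a member in the Olaparib + LLY-283 library, with a median of 2.07%, and between 0.530% and 5.46% in the Combo library, with a median of 1.88%. Just outside the threshold, the highest Col3a1 share among cells that met every other condition was 0.499% and 0.382%. Such cells numbered 193 and 37, and 58 and 10 members lay between 0.5% and 1%. Col5a2, a minor fibrillar collagen that lies next to Col3a1 (chromosome 1, 45374321 to 45503282, minus strand), was at 1280 and 1645 CPM in CAFs and at 5.79 and 2.52 in tumor cells. Thy1, a surface glycoprotein, was at 259 and 413 CPM against 1.25 and 0.750, and Pdgfra, the receptor for platelet-derived growth factor, at 178 and 210 CPM against 26.0 and 30.7.

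**Figure D1:**
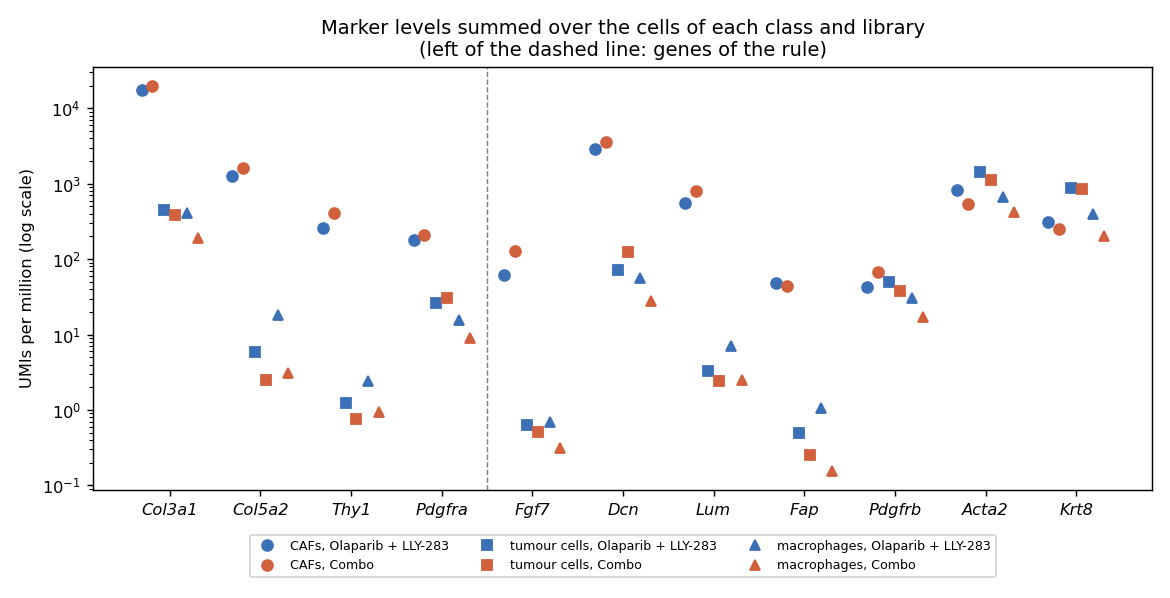
Levels of 11 markers in CPM (log axis), summed over the CAFs (circles), tumor cells (squares) and macrophages (triangles) of each library (blue, Olaparib + LLY-283; red, Combo), 1 library per group. Fgf7, Dcn, Lum and Fap, which the rule did not use, lie far above the tumor cells in CAFs, whereas Pdgfrb, Acta2 and Krt8 do not.

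Markers of most other cell types were near 0 in the CAFs. The 7 endothelial markers summed to 5.57 and 10.1 CPM, with Cdh5 and Tie1 at 0 in both libraries and Egfl7 the most abundant. The 6 pericyte markers summed to 20.4 and 40.5 CPM in CAFs and to 1.39 and 0.850 in tumor cells. Abcc9 was the most abundant of them, and Rgs5 had 0 and 1 UMIs. At least 2 UMIs of these 6 genes were found in 5 of 253 and 13 of 66 members, which differ in depth. A wider list of 10 pericyte genes, led by Ndufa4l2, was not near 0. It summed to 285 and 414 CPM in CAFs, against 4.54 and 2.52 in tumor cells. Of its genes, 4 had at least 20 UMIs, and all 4 were 2-fold or more above tumor cells in both libraries. The 8 T and NK markers summed to 2.48 and 7.75 CPM, and the 6 dendritic cell markers to 1.24 and 5.96. The 5 red blood cell markers were at 0 and 0.596 CPM and the 6 osteoblast and cartilage markers at 0 and 1.19. The 6 skeletal muscle markers summed to 17.3 and 13.7 CPM, led by Acta1.

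Keratin, macrophage and neutrophil RNA was present. The 9 tumor markers summed to 438 and 309 CPM in CAFs and to 1178 and 1115 in tumor cells, with Krt8 the most abundant and Cdh1, Cldn4 and Cldn7 at 0 in the CAFs of both libraries. Krt8 was at 313 and 250 CPM in CAFs, at 396 and 202 in macrophages and at 635 and 296 in neutrophils, cells that should lack it, against 884 and 864 in tumor cells. Members with Krt8 and Krt18 at 0.03% of UMIs or more numbered 94 of 253 and 10 of 66. The 8 macrophage markers summed to 339 and 269 CPM (19554 and 24234 in macrophages), led by Lyz2 and with Adgre1 at 0, and the 6 neutrophil markers to 405 and 674, led by S100a9.

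Scrublet, a doublet caller, marked 71 of 253 members under Olaparib + LLY-283 and 1 of 66 under Combo, at a score threshold of 0.25 that was set after the call counts of other settings had been seen. The 71 called members held a median of 9724 UMIs, Krt8 at 457 CPM and Col3a1 at 8738 CPM. The 182 members that were not called held 3855.5 UMIs, Krt8 at 160 CPM and Col3a1 at 26627 CPM. In this setting the caller scaled the observed cells but not its simulated doublets before the log. With both scaled it marked 43 and 0 members, 42 of them among the 71, and in all of Combo 1 cell, so that run took members from 1 library alone. Members were kept as the rule gave them. Because the calls are so uneven, the shares of filtered cells and of the sides of the CAFs, the counts of genes, the list medians and the genes furthest apart are given also without the 71 and 1 members (written as without called doublets), and some of these without the 43 (on matched scales). Other levels between the libraries are of all members.

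CAFs made up 1.58% of filtered cells in the Olaparib + LLY-283 library (Clopper-Pearson 95% interval 1.39 to 1.78) and 1.11% in the Combo library (0.858 to 1.41). Each interval covers the counting of cells in 1 library and does not compare the shares. Without called doublets the shares were 1.27% and 1.11%, and on matched scales 1.495% and 1.11%. The mitochondrial limit removed 86 of 16115 deposited cells under Olaparib + LLY-283 and 1586 of 7542 under Combo. Of the removed cells, 0 met all other CAF conditions. Without that limit the shares were 1.57% and 0.876%, so the distance between the libraries depended on it. CAFs were kept out of the tumor gate, though 94 and 10 of them had its keratin share. Among the 5512 and 3330 filtered cells that were then not tumor cells, CAFs were 4.59% (4.05 to 5.18) and 1.98% (1.54 to 2.51). Enzyme digestion and the removal of dead cells can set such shares, and with 1 library per group they were not tested. The rule's minimum of 2 UMIs of Col5a2, Thy1 and Pdgfra also depends on depth, which differed between the libraries. Cells that met all but the condition on these 3 genes numbered 56 and 19, and 14 and 5 of them held 1 UMI.

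In CAFs, 624 of 4640 genes with at least 100 UMIs were 2-fold or more above tumor cells in both libraries (13.4% of the genes) and 54 were 2-fold or more below (1.16%). The counts describe the members, since the cells were chosen by their own expression. The 10 genes outside the rule with the largest ratios were Cd55, Ptn, Scn7a, Prg4, Nnmt, Serpinb2, Srpx2, Chl1, Ndn and En1. Cd55, a surface inhibitor of complement, was at 158 and 173 CPM in CAFs and 445 and 553 times the tumor level. Prg4, a lubricating proteoglycan of joints, was at 485 and 431 CPM and 422 and 865 times the tumor level. Serpinb2, an inhibitor of plasminogen activators, was at 365 and 487 CPM, and Chl1, an adhesion molecule, at 200 and 292 CPM. Ptn, a heparin-binding growth factor, was at 26.0 and 42.3 CPM, and En1, a homeobox factor of embryonic dermis, at 32.2 and 44.7 CPM. All 10 differed by less than 2-fold between the libraries.

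By role, most matrix genes were above tumor cells and most contractile genes were not. Of the genes with at least 20 UMIs, 8 of 8 fibrillar collagens (among them Col3a1 and Col5a2, which the rule used), 9 of 13 other collagens, 14 of 19 collagen processing genes, 19 of 22 matrix glycoproteins and 6 of 8 small leucine-rich proteoglycans were 2-fold or more above tumor cells in both libraries. Over all 9669 genes with at least 20 UMIs, 1300 were. Of 10 contractile genes only 1 was, and 8 were below tumor cells in both libraries, as were 3841 of the 9669 genes. Acta2, the smooth muscle actin that marks myofibroblasts, was at 817 and 545 CPM in CAFs, at 1417 and 1138 in tumor cells and at 675 and 418 in macrophages. After each cell was thinned to 1000 UMIs, 35.9% and 24.7% of CAFs had an Acta2 UMI, against 62.8% and 50.0% of tumor cells and 30.5% and 18.1% of macrophages. With all UMIs these shares were 73.5% and 86.4% of CAFs, 96.0% and 97.1% of tumor cells and 59.0% and 82.6% of macrophages, at median depths of 4505 and 21578.5, 9545 and 47738.5, and 2951 and 13858 UMIs. Tagln, an actin-binding protein of smooth muscle, was the exception at 166 and 204 CPM in CAFs and 6.62 and 4.58 in tumor cells.

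The CAFs were not uniform, and 7 genes were chosen after the data had been seen to describe how they varied. Clec3b, Dpt and Pi16, genes of resting fibroblasts, varied together across members, and so did Tnc, a matrix glycoprotein of remodeling tissue, Cxcl14, a chemokine, Spon1, a matrix protein, and Crabp1, a retinoic acid binder. Among members with at least 2000 UMIs (225 and 60 cells), the Spearman correlation of the shares of Clec3b and Dpt was 0.72 and 0.89, that of Spon1 and Crabp1 0.64 and 0.78, and that of Clec3b and Tnc −0.53 and −0.69. These points are cells of 1 library each and share its depth, so the coefficients are descriptions.

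Members were then split by which of these sums held more UMIs. Clec3b, Dpt and Pi16 held more in 209 of 253 members under Olaparib + LLY-283 (82.6%, interval 77.4 to 87.1) and in 41 of 66 members under Combo (62.1%, interval 49.3 to 73.8). Tnc, Cxcl14, Spon1 and Crabp1 held more in 40 members (15.8%, interval 11.5 to 20.9) and in 21 members (31.8%, 20.9 to 44.4). The sums were equal in 4 members of each library, and they differed by 3 UMIs or fewer in 27 and 8 members. Without called doublets the Clec3b side made up 81.9% (75.5 to 87.2) and 63.1% (50.2 to 74.7) of members, and the Tnc side 17.0% (11.9 to 23.3) and 32.3% (21.2 to 45.1). These intervals are over the cells of 1 library each and the genes of the split were chosen on these cells, so the difference in shares between the libraries was not tested. Within a library, members of the sides had similar median depths, 4505 and 4588.5 UMIs under Olaparib + LLY-283 and 21594 and 23053 under Combo.

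Genes outside the split differed between the sides in both libraries. Tagln was at 71.1 and 11.5 CPM on the Clec3b side and at 806 and 613 CPM on the Tnc side. Inhba, a subunit of activin, was at 88.7 and 39.1 CPM on the Clec3b side and 844 and 1069 on the Tnc side. Col12a1, a fibril-associated collagen, was at 317 and 378 CPM against 1528 and 1781. In the other direction, Ly6c1, a surface protein of resting fibroblasts, was at 833 and 865 CPM on the Clec3b side and 90.1 and 186 on the Tnc side. Cd248, a stromal glycoprotein, was at 460 and 499 CPM against 71.2 and 151. Fgf7 was at 63.8 and 134 CPM on the Clec3b side and at 56.9 and 117 on the Tnc side, so within each library its counting intervals overlapped between the sides. Since the sides were drawn from the same cells, these differences were not tested.

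**Figure D2:**
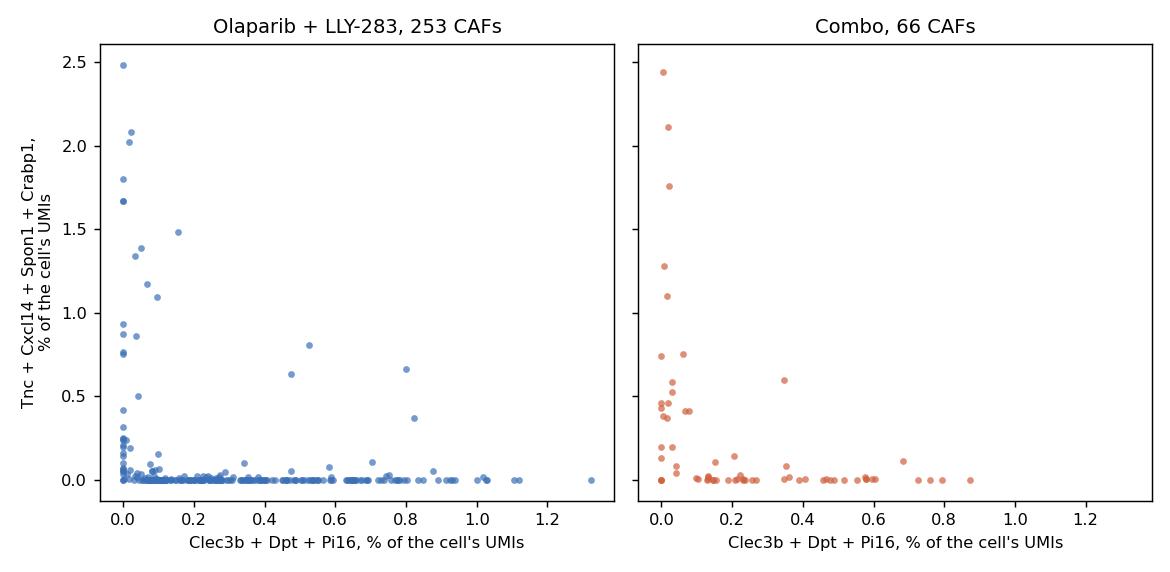
Each point is 1 CAF, with the share of its UMIs from Clec3b, Dpt and Pi16 on the horizontal axis and from Tnc, Cxcl14, Spon1 and Crabp1 on the vertical axis, both in percent (left, Olaparib + LLY-283; right, Combo). Most members lie along 1 of the axes, and 15.8% and 31.8% of members hold more UMIs of the second set.

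Between the libraries, 63 of 4640 genes were 2-fold or more higher in Combo CAFs (1.36% of the genes) and 33 were 2-fold or more lower (0.711%), with 0.5 UMIs added to each sum. The minimum of 100 UMIs held for the sum of both libraries. A gene could therefore reach it through the library where it was higher. The genes that were higher and those that were lower differed in their ratio of CAFs over tumor cells. The same CAF sums enter that ratio and the one between the libraries, so the 2 are not independent. Of the 63 higher genes, 44 were at least 2-fold above tumor cells in both libraries, as were 624 of all 4640 genes. Of the 33 lower genes, 0 were, and 32 were below tumor cells in both libraries, as were 2098 of all 4640 genes. Without called doublets, 46 genes were higher and 20 lower, and on matched scales 32 were higher and 14 lower. The number of genes that met the minimum in these 2 runs is not given, so their counts are not shares of the 4640.

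**Figure D3:**
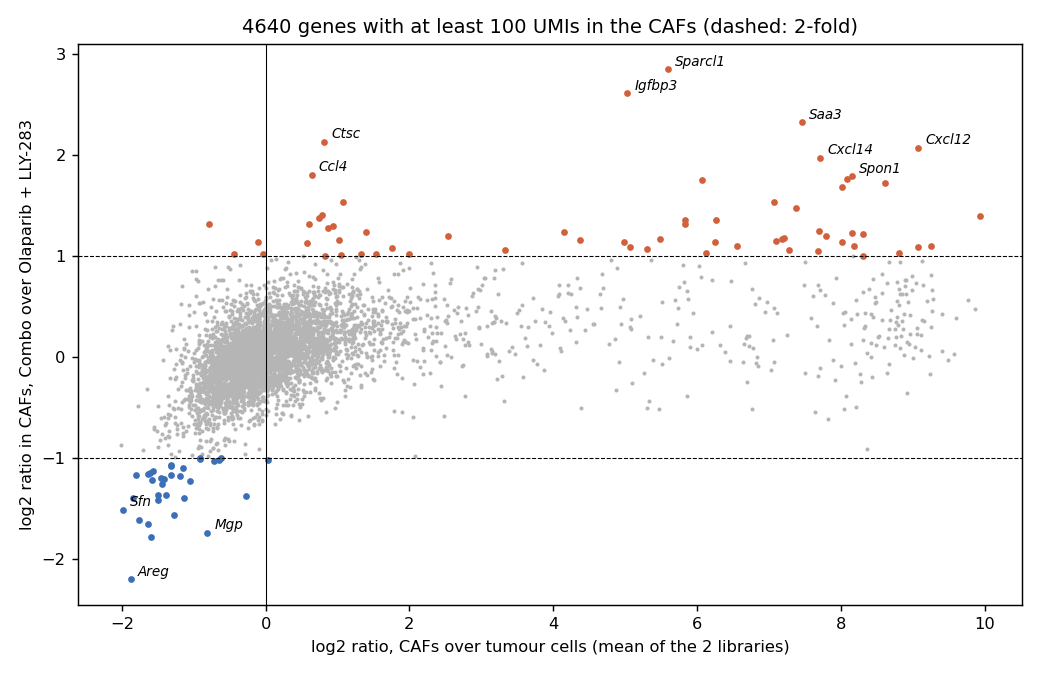
For each of 4640 genes with at least 100 UMIs in CAFs, the log2 ratio of CAFs over tumor cells (horizontal, mean of the libraries) is plotted against the log2 ratio of Combo over Olaparib + LLY-283 in CAFs (vertical). Of the 63 genes above the upper dashed line (2-fold), 44 were at least 2-fold above tumor cells, and of the 33 below the lower one, 32 were below tumor cells. The same CAF sums enter both axes, so the axes are not independent.

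The 8 genes that were highest in Combo relative to Olaparib + LLY-283 were Sparcl1, Igfbp3, Saa3, Ctsc, Cxcl12, Cxcl14, Ccl4 and Spon1. Sparcl1 (17 and 130 UMIs), Igfbp3 (22 and 142), Ctsc (19 and 88) and Ccl4 (30 and 110) reached 100 UMIs only with the Combo library. They were higher there, so their place among the 8 is no support for a difference. Cxcl12, a chemokine that binds Cxcr4, was at 71.8 CPM (116 UMIs) in Olaparib + LLY-283 CAFs and 302 CPM (506 UMIs) in Combo CAFs, 4.19 times higher (counting interval 3.43 to 5.19). In tumor cells Cxcl12 was at 0.230 and 0.317 CPM. Saa3, an acute phase protein, went from 166 to 832 CPM, 4.99 times higher (4.38 to 5.72), with 2.30 and 1.95 CPM in tumor cells. Cxcl14 went from 308 to 1205 CPM, 3.91 times higher (3.55 to 4.33). The 2 chemokines and Saa3 are the members of a list of 20 inflammatory fibroblast genes that were 2-fold or more apart between the libraries.

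Without called doublets the log2 ratios of these 3 genes went from 2.07 to 1.33 for Cxcl12, from 2.32 to 1.70 for Saa3 and from 1.97 to 1.04 for Cxcl14. On matched scales they were 1.60, 1.96 and 1.40. After thinning to 1000 UMIs, a Cxcl12 UMI was found in 8.75% (interval 5.62 to 13.1) and 18.6% (9.36 to 30.0) of CAFs, against 28.1% and 75.8% with all UMIs. For Saa3 the thinned shares were 10.3% (6.94 to 14.9) and 24.4% (14.5 to 37.3), against 17.8% and 50.0% with all UMIs. In macrophages, which should lack it, Cxcl12 was found in 0.16% and 0.26% of cells with all UMIs. A Cxcl14 UMI was found in 21.4% and 54.1% of macrophages, against 16.2% and 47.0% of CAFs. After thinning these shares were 9.49% and 11.95% of macrophages and 10.2% and 21.9% of CAFs.

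Both sides of the CAFs held more Cxcl12 and Saa3 in the Combo library. On the Clec3b side Cxcl12 was at 68.9 CPM (interval 55.7 to 84.3) and 318 CPM (286 to 352), and on the Tnc side at 104 CPM (65.4 to 158) and 275 CPM (233 to 323). Saa3 was at 132 and 531 CPM on the Clec3b side and at 422 and 1483 on the Tnc side. Without called doublets the log2 ratios by side were 1.47 and 0.79 for Cxcl12 and 1.45 and 1.33 for Saa3. On matched scales they were 1.70 and 1.30 for Cxcl12 and 1.72 and 1.73 for Saa3. Cxcl14, a gene of the split, was at 33.7 and 27.5 CPM on the Clec3b side and at 2140 and 3697 on the Tnc side. Its log2 ratio on the Tnc side was 0.79, 0.14 without called doublets and 0.74 on matched scales, beside 1.97 over all members. The Tnc side made up 15.8% and 31.8% of members. A few members carried much of these RNAs. The 5 members with the most UMIs of the gene held 54.0% of Cxcl12, 66.8% of Saa3 and 68.0% of Cxcl14 in Combo CAFs. Without those 5 members in each library the log2 ratios were 1.52, 1.53 and 1.73. This takes 5 of 66 members from one library and 5 of 253 from the other, so it lowers the Combo level more by its construction, also for genes that were lower.

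The other genes of this group were rarer. Sparcl1, a matrix protein of vessel walls, went from 10.5 to 77.5 CPM and Igfbp3, a binder of insulin-like growth factors, from 13.6 to 84.7 CPM. In Combo CAFs the 5 leading members held 83.1% and 83.8% of them, and without these members the log2 ratios were 1.15 and 1.85 in place of 2.84 and 2.61. Without called doublets they were 2.41 and 1.85. Of Igfbp3, the Tnc side held 17 of 22 and 132 of 142 UMIs. Of Sparcl1, the Tnc side held 6 of 17 UMIs under Olaparib + LLY-283 and 69 of 130 under Combo, where the 4 members with equal sums held another 57. Spon1 went from 65.0 to 225 CPM, a log2 ratio of 1.79, or 0.91 without called doublets. It is a gene of the split, with 100 and 372 UMIs on the Tnc side, where it was at 474 and 691 CPM. Ccl4, a chemokine of myeloid cells, and Ctsc, a lysosomal protease, were at 465 and 859 CPM in macrophages of the Olaparib + LLY-283 library against 18.6 and 11.8 in its CAFs. Without its 5 leading members Ccl4 had a log2 ratio of 0.05, and Ctsc one of 2.21, and without called doublets they had 1.57 and 2.13. The part of macrophage RNA in these was not tested.

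**Figure D4:**
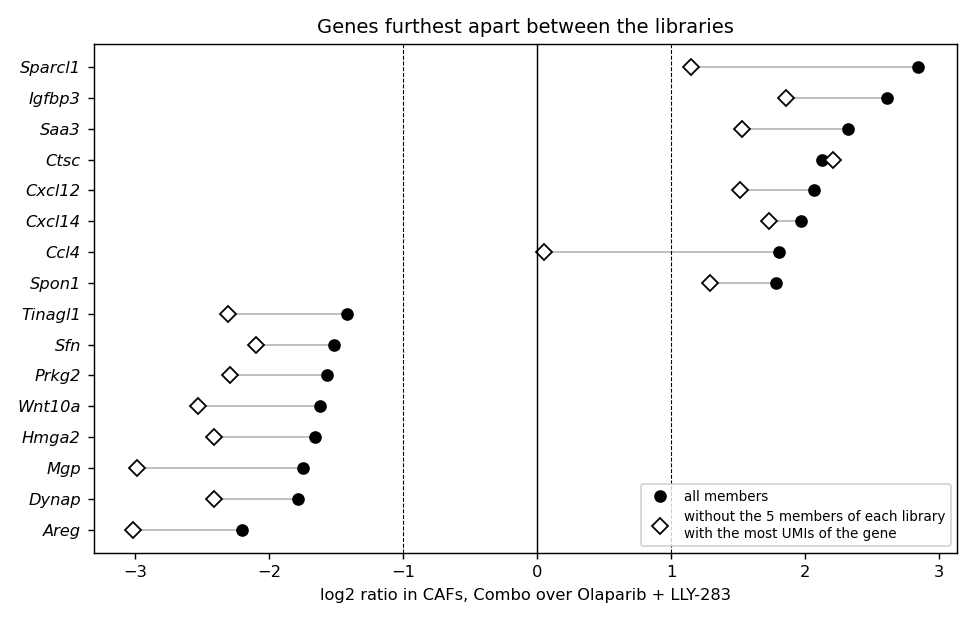
Log2 ratio of Combo over Olaparib + LLY-283 in CAFs for the 16 genes furthest apart, with all members (filled circles) and without the 5 members of each library with the most UMIs of the gene (open diamonds). Ccl4 moves to 0.05 and Sparcl1 to 1.15; leaving out 5 of 66 against 5 of 253 members lowers the Combo level more by construction, and the 8 lower genes move further from 0.

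The promoters of the 3 inflammatory genes are printed from RefSeq (GRCm38.p6, the mm10 build) as the 120 bases before the transcription start, 5′ to 3′ on the strand of the gene, because these were the genes of the inflammatory list that were past 2-fold over all members. Capitals mark TTGCNNAA, a motif of C/EBP factors, on either strand. The motif was picked after 11 patterns had been searched in 15 promoters, and it is in this window of 4.15% of 32851 promoters. Saa3 holds it 99 bases before the start, and Cxcl12 and Cxcl14 do not.
Saa3 (chr7:46715677-46715796, minus strand): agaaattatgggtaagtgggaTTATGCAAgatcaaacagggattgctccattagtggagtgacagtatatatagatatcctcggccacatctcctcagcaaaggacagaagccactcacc
Cxcl12 (chr6:117168415-117168534, plus strand): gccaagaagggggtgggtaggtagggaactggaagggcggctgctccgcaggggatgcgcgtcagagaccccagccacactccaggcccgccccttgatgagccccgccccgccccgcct
Cxcl14 (chr13:56296552-56296671, minus strand): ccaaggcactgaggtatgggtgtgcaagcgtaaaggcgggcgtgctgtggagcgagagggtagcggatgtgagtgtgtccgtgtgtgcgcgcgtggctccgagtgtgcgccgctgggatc

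The 8 genes that were lowest in Combo were Areg, Dynap, Mgp, Hmga2, Wnt10a, Prkg2, Sfn and Tinagl1. Areg, Mgp, Wnt10a, Sfn and Tinagl1 held 57, 78, 29, 40 and 39 UMIs in Combo CAFs. They reached 100 UMIs only with the Olaparib + LLY-283 library, where they were higher. Their place among the 8 is therefore no support for a difference. Areg, a ligand of the EGF receptor, was at 158 CPM (255 UMIs) and 34.0 CPM (57 UMIs), 0.217 times the level (0.159 to 0.288). Hmga2, a chromatin protein of embryonic and tumor cells, was at 200 and 63.2 CPM. All 8 were higher in tumor cells than in CAFs, with Areg at 344 and 212 CPM and Hmga2 at 407 and 300. They were also lower in the macrophages of the Combo library, where Areg was at 187 and 64.9 CPM and Hmga2 at 216 and 87.0. Over the 33 lower genes the median log2 ratio was −1.21 in CAFs, −0.97 in macrophages, −1.13 in neutrophils and −0.29 in tumor cells, and 30 of the 33 were lower in Combo macrophages. Over all 4640 genes the neutrophil median was −0.56, and 2514 were lower in Combo macrophages. Krt8 in macrophages stood at 44.8% and 23.4% of its tumor level. Without called doublets the log2 ratio of Areg went from −2.21 to −0.79 and that of Hmga2 from −1.66 to −0.49. On matched scales they were −1.69 and −0.89. Without called doublets the other 6 genes lay between −0.37 and −1.07. Without the 94 and 10 members with Krt8 and Krt18 at 0.03% of UMIs or more, Areg and Hmga2 were at −1.99 and −2.12 and the other 6 genes between −1.47 and −2.45. Of the members kept there, 56 and 45 still held a keratin UMI. The part of tumor RNA in these values was not tested.

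The lists by role were described by their median log2 ratio of Combo over Olaparib + LLY-283, beside 0.05 over all 9669 genes with at least 20 UMIs, of which 325 were 2-fold or more higher (3.36%) and 193 lower (2%). The matrix lists lay above it. The 8 fibrillar collagens had a median of 0.62. Col24a1, with 1 and 21 UMIs, reached 20 UMIs only through the Combo library, so its ratio was bound to lie above 0, and the other 7 had ratios above 0 and below 2-fold. Col1a1, the main chain of type I collagen, was at 7578 and 11647 CPM and its partner Col1a2 at 9932 and 13917. Their log2 ratios were 0.62 and 0.49 with all members, 0.04 and −0.04 without called doublets and 0.25 and 0.16 on matched scales. The 13 other collagens had a median of 0.81, with the basement membrane chains Col4a1 (116 and 277 CPM) and Col4a2 (63.8 and 141) and Col15a1 (32.8 and 108) past 2-fold, and Col4a5 lower. Col4a5 (38 and 16 UMIs) reached 20 UMIs only through the Olaparib + LLY-283 library, where it was higher. Within the sides none of Col4a1, Col4a2 and Col15a1 was past 2-fold. Their log2 ratios were 0.81, 0.95 and 0.42 on the Clec3b side and 0.91, 0.41 and 0.86 on the Tnc side. Without called doublets and over both sides they were 0.75, 0.35 and 1.04. The collagen crosslinking list had a median of 0.26, the matrix glycoproteins 0.27 and the small proteoglycans 0.29. Among them, Sparc, a collagen chaperone of the matrix, was at 9226 and 11651 CPM, Fn1, fibronectin, at 4559 and 4383, and Dcn, decorin, at 2938 and 3547. Tnc and Spon1 were the matrix glycoproteins past 2-fold, Tnc at 319 and 718 CPM with a log2 ratio of 1.17, or 0.42 without called doublets. Tnc is a gene of the split, and on the Tnc side it was at 2149 and 2024 CPM. Without called doublets these medians were 0.00 for the fibrillar collagens, 0.21 for the other collagens, −0.18 for crosslinking, −0.22 for the glycoproteins and −0.32 for the proteoglycans, while that of all genes was 0.04. On matched scales the fibrillar collagens had a median of 0.24 and the other collagens 0.42, and the last 3 lists had −0.03, 0.00 and −0.06.

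**Figure D5:**
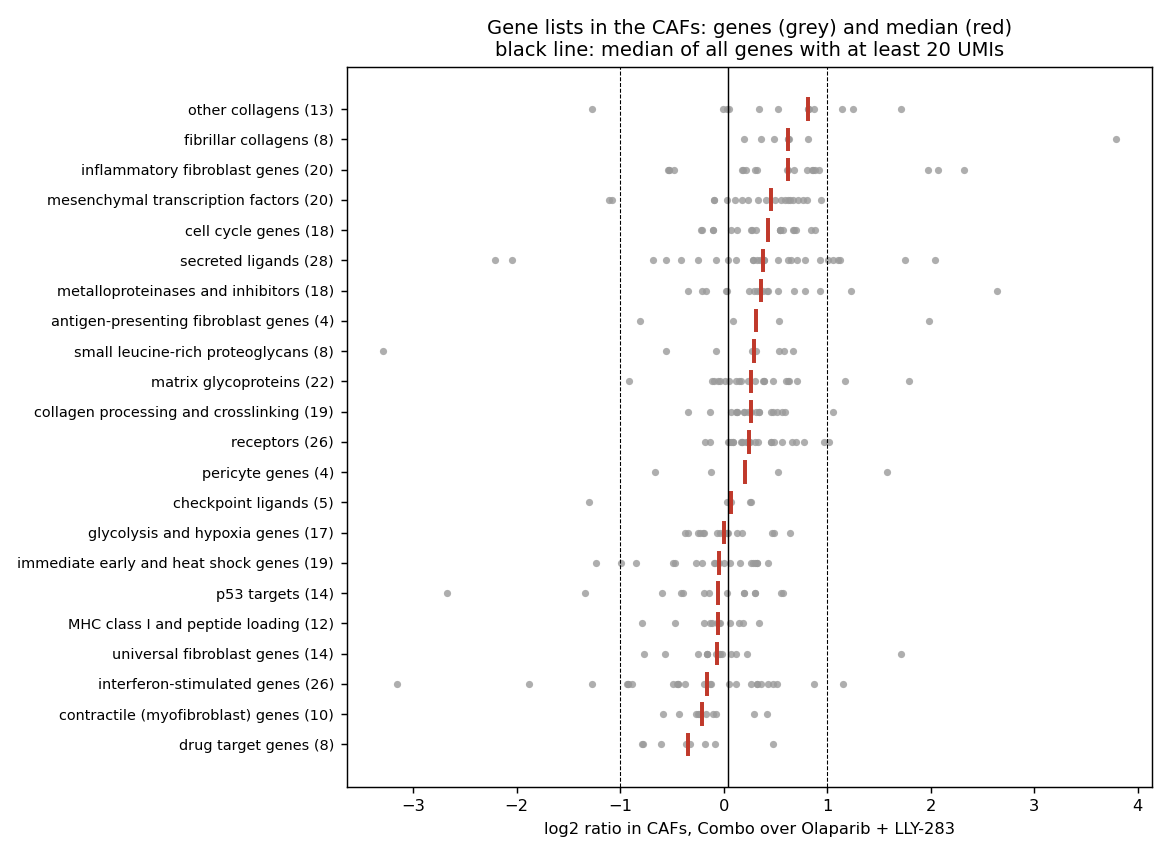
Log2 ratio of Combo over Olaparib + LLY-283 in CAFs for the genes of 22 lists with at least 20 UMIs (grey points, number in brackets), with the list median in red and the median of all such genes, 0.05, as a black line. With all members kept the other collagens have the highest median, 0.81, and the fibrillar collagens and the inflammatory genes follow at 0.62, and without called doublets these are 0.21, 0.00 and 0.17.

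Secreted and signaling genes came next. The 20 inflammatory genes had a median of 0.62, 3 of them 2-fold or more higher and 0 lower, and 0.17 without called doublets or 0.29 on matched scales. C3, the central complement component, was at 512 and 641 CPM. Of 28 secreted ligands, 6 were 2-fold or more higher, Grem1, Gas6, Hgf, Nrg1, Fgf7 and Inhba, and 2 lower, Areg and Bmp4, with a median of 0.38, or 0.08 without called doublets. Of the 6, Grem1 (16 and 70 UMIs), Hgf (9 and 21) and Nrg1 (10 and 23) reached 20 UMIs only through the Combo library, where they were higher, so their place in this count is no support for it. The same holds for Bmp4 (73 and 18) among the lower genes. It reached 20 UMIs only through the Olaparib + LLY-283 library, where it was higher. The interval of the log2 ratio of Hgf (−0.02 to 2.48) held 0. Inhba, at a log2 ratio of 1.00 over all members, was at 88.7 and 39.1 CPM on the Clec3b side and at 844 and 1069 on the Tnc side. Fgf7 was 2.08 times higher in Combo CAFs (1.63 to 2.67), a log2 ratio of 1.05 that was 0.53 without called doublets. After thinning, an Fgf7 UMI was found in 7.39% and 10.9% of CAFs, with overlapping intervals (4.34 to 11.2 and 4.74 to 22.2), against 28.9% and 72.7% with all UMIs. Gas6, a ligand of the TAM receptors, was 3.37 times higher, a log2 ratio of 1.75 that was 1.28 without called doublets. The 26 receptors had a median of 0.24, or −0.02 without called doublets, with 1 past 2-fold, Ifnar1, a chain of the type I interferon receptor. Tgfbr2, a TGF-β receptor, was at 439 and 511 CPM and Itgb1, an integrin chain, at 555 and 589.

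The 20 mesenchymal transcription factors had a median of 0.46, or 0.20 without called doublets. Sox9 and Nr2f2 were 2-fold or more lower, and both were higher in tumor cells than in CAFs. Prrx1, a homeobox factor of mesenchyme, was at 278 and 408 CPM and Klf4 at 350 and 395. The 18 metalloproteinases and inhibitors had a median of 0.36, or −0.17 without called doublets. Timp1, an inhibitor of metalloproteinases, was at 2063 and 2103 CPM and Mmp2, a gelatinase, at 631 and 803. The 14 universal fibroblast genes, of which Col15a1 was past 2-fold, had a median of −0.06, or −0.66 without called doublets and −0.41 on matched scales. Pi16 was at 597 and 501 CPM, Dpt at 831 and 971 and Ly6a at 2290 and 2053. The 10 contractile genes had a median of −0.21, with 0 past 2-fold, and 0.23 without called doublets or −0.12 on matched scales. Tpm1, a tropomyosin, was at 655 and 609 CPM.

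Genes of the interferon response and of MHC class I had medians just below that of all genes in CAFs. The 26 interferon-stimulated genes had a median of −0.16, or −0.01 without called doublets, with Iigp1, an interferon-induced GTPase, 2-fold or more higher and Oas1a, Ifit3 and Ifi44 lower, each of the latter on 24 UMIs or fewer. Oas1a (21 and 2 UMIs), Ifit3 (19 and 5) and Ifi44 (17 and 7) reached 20 UMIs only with the Olaparib + LLY-283 library. They were higher there, so their place in this count is no support for it. The interval of the log2 ratio of Ifi44 (−2.85 to 0.01) held 0. In tumor cells the same list had a median of 0.16. Ifitm3 was at 1649 and 1711 CPM and Bst2 at 251 and 184 in CAFs. All 12 genes of MHC class I and peptide loading were below tumor cells in both libraries, beside 3841 of 9669 genes, and their median log2 ratio was −0.06, or 0.38 without called doublets and 0.16 on matched scales. B2m, the light chain of class I molecules, was at 1234 and 892 CPM in CAFs and 1963 and 1606 in tumor cells. Of 7 genes of antigen-presenting fibroblasts 4 reached 20 UMIs, with a median of 0.31, or 0.43 without called doublets and −0.11 without the members at 0.03% keratin or more. Of these, Cd74 (16 and 67 UMIs) did so only through the Combo library, where it was higher, so its ratio is no support for a difference. Cd74, the invariant chain of MHC class II, was at 9.90 and 39.9 CPM in CAFs and 588 and 847 in macrophages, and H2-Aa had 2 and 9 UMIs. Of 10 checkpoint ligands 5 reached 20 UMIs, with a median of 0.07, or −0.25 without called doublets, led by Lgals9 at 80.5 and 82.3 CPM. Of 10 pericyte genes 4 did, with a median of 0.20, or −0.51 without called doublets.

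The targets of the drugs were detected on few UMIs. Prmt5 was at 35.3 CPM (57 UMIs) and 27.4 CPM (46 UMIs) in CAFs and its partner Wdr77 at 42.7 and 28.0, and Parp1 was at 36.5 and 32.2 and Parp2 at 20.4 and 28.6. The 8 drug target genes had a median of −0.34, or 0.01 without called doublets, and 0 were past 2-fold. The 14 p53 targets had a median of −0.05, or 0.16 without called doublets. Cdkn2a (21 and 3 UMIs) and Gdf15 (30 and 12) were 2-fold or more lower. Both reached 20 UMIs only through the Olaparib + LLY-283 library, where they were higher. Cdkn1a, which halts the cell cycle, was at 222 and 195 CPM. The 18 cell cycle genes had a median of 0.43, or 0.97 without called doublets and 0.48 on matched scales. It was −0.09 without the members at 0.03% keratin or more and 0.04 without the 5 deepest members of each library. Of these genes 17 were below tumor cells in both libraries, as were 3841 of the 9669 genes. At least 2 UMIs of Mki67 and Top2a, genes of dividing cells, were found in 38 of 253 members and 24 of 66, which differ in depth. Top2a was at 91.0 and 145 CPM. Fos and Jun, genes that cell dissociation can induce, were at 1199 and 1165 CPM and at 747 and 921. The 17 glycolysis and hypoxia genes had a median of 0.00, or 0.26 without called doublets, and the 19 immediate early and heat shock genes one of −0.04, or 0.02. Of the latter, Hspb1 was 2-fold or more lower over all members. It held 1060 and 467 UMIs, a log2 ratio of −1.24 (−1.40 to −1.08).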

How the data were processed

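The deposited values are UMI counts, whole numbers that the authors made with Cell Ranger and did not normalize. The matrix headers give version 6.1.2 of it, which is not the one in the study's methods. The submitters' processing notes add bcl2fastq 5.0.1, Seurat 4.1.0 and mm10. All 55450 gene identifiers were in GENCODE M21.

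The members and lists (22 by role, 12 of markers) were chosen with earlier results of these data known. UMIs were summed over the cells of a class and library and given as CPM with exact Poisson intervals. Ratios had 0.5 UMIs added to each sum, with exact conditional binomial intervals (95%). Members were kept out of the other classes. Tumor cells had at least 2 UMIs and 0.03% of Krt8 and Krt18, under 0.05% of Tyrobp and Ptprc and under 0.03% of Pecam1 and Cdh5. Macrophages had at least 3 UMIs and 0.1% of C1qa, C1qb and C1qc, with 1 of Tyrobp. Neutrophils had at least 3 UMIs and 0.5% of S100a8 and S100a9. Thinning to 1000 UMIs was repeated in 50 draws, leaving out 4 and 5 shallower CAFs. With 1 library per group there was no test, and p-values are not given. Named genes were the rule genes and Fgf7, the 3 members of each list with the most UMIs, markers of other cell types, the 8 largest ratios between libraries each way (at least 100 UMIs, a UMI in 10% of CAFs of the higher library) and the 10 largest ratios over tumor cells. Other genes named (those past 2-fold in a list, those of the sides of the CAFs, and Fap, Lum, Tagln and Ddr2 among others) were chosen after their values were seen. Not every gene the rule takes is given in the text.

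Scrublet (scanpy 1.11.5, expected rate 0.8% per 1000 cells) was run in 4 settings. With the automatic threshold it called 0 cells in both libraries, and with log-transformed counts 2364 of 16029 and 47 of 5956. A fixed threshold of 0.25 with log-transformed counts, set after the call counts of the other settings had been seen, called 1727 (10.8%) and 86 (1.44%), and was used for the alternative without doublets. Because scanpy scales only the observed cells before this log, a run with both sides scaled was added after those results were seen, and it called 1982 and 1. The procedure was tested on simulated counts. The work used scipy 1.17.1 and pandas 2.3.3 with numpy 2.4.6 under Python 3.11.15, and figures were drawn in matplotlib 3.10.9.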

Additional observations from a re-analysis of the deposited data

Results flagged for a closer look

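Genes far apart between the libraries in CAFs moved the opposite way in tumor cells in 4 cases, with counting intervals apart from equality in both. The log2 ratio in CAFs minus that in tumor cells was 3.72 for Sparcl1, 2.90 for Cxcl14, 2.75 for Spon1 and −1.53 for Tinagl1. Sparcl1 (17 and 130 UMIs in CAFs) reached 100 UMIs only with the Combo library, where it was higher. Tinagl1 (101 and 39) did so only with the Olaparib + LLY-283 library, where it was higher. Without called doublets the log2 ratios in CAFs were 2.41 for Sparcl1, 1.04 for Cxcl14, 0.91 for Spon1 and −0.57 for Tinagl1. Sparcl1 had 1.15 without its 5 leading members. On the Tnc side Cxcl14 had 0.79, 0.14 without called doublets and 0.74 on matched scales. The differences from tumor cells were not tested, since each group is 1 library.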

How the results depend on the processing

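No paired analysis was possible because each group is 1 library. Removal of called doublets took 71 of 253 and 1 of 66 CAFs, so it changed the members of mainly 1 library. It moved the CAF share of the Olaparib + LLY-283 library from 1.58% to 1.27%, and the count of lower genes from 33 to 20. With the automatic threshold and log-transformed counts, an alternative chosen after seeing the data that took 86 and 1 CAFs, the share was 1.22% and the counts were 69 higher and 18 lower genes. Calls on matched scales, also chosen after seeing the data, took 43 and 0 CAFs and gave 32 higher and 14 lower genes. A Col3a1 threshold of 1% gave a share of 1.22% in that library with 37 higher and 14 lower genes, and one of 0.25% a share of 1.84%. Removal of the 94 and 10 members with Krt8 and Krt18 at 0.03% of UMIs or more left 38 higher and 19 lower genes, and leaving out the 5 deepest members of each library, which held 23.1% of Combo CAF UMIs, gave 66 lower genes. A minimum of 30 UMIs gave 226 and 128 genes and 1 UMI gave 2730 and 2163. For none of the alternatives is the number of genes that met the minimum given, so their counts cannot be read as shares. Limited to genes at least 2-fold above tumor cells, also chosen after seeing the data, 44 were higher and 0 lower. The CAF sums enter that limit as well as the ratio between the libraries. The cause of these changes was not tested. None of the 16 genes furthest apart changed direction under the alternatives run, though without called doublets 7 of the 8 lower genes, all but Mgp, were within 2-fold, and on matched scales Hmga2, Sfn and Tinagl1 were. At the automatic threshold all 8 were, between −0.02 (Hmga2) and −0.97 (Mgp). Of the 22 list medians, 12 changed sign without called doublets, 13 at the automatic threshold, 8 on matched scales, and 5 or fewer under each other alternative. With each cell weighted equally (mean of the cells' CPM) there were 87 higher and 39 lower genes, Ccl4 (0.85), Dynap (−0.74), Mgp (−0.88) and Prkg2 (−0.72) were within 2-fold, and Cxcl12 and Cxcl14 had log2 ratios of 1.22 and 1.23. Counts of genes above tumor cells lay between 608 and 660, beside 624. Depth limits genes under 20 UMIs, which no list median includes.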
